A study of Mus musculus with 9 samples.

Results

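The genes described here encode the piRNA pathway of the male germ line and the germ granules in which it works. They are 38 genes chosen by name from 7 classes, namely PIWI proteins, tudor domain proteins, germ granule helicases, factors of piRNA biogenesis and amplification, enzymes that finish piRNA 3′ ends, factors of piRNA transcription and transposon silencing, and proteins that store and translate germ-cell mRNA. All 38 were found by gene symbol among the 38674 gene rows of the deposited table, of which 25173 had signal in at least 1 animal.

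The data came from 9 male C57BL/6 mice that differed in the germ-cell actin regulator profilin 3 (Pfn3). There were 3 Pfn3+/+ (WT), 3 Pfn3+/- (Het) and 3 Pfn3-/- (KO) animals, and whole testis RNA freed of the tunica albuginea was sequenced from the 3′ end of polyadenylated transcripts with QuantSeq. The Pfn3 alleles were CRISPR/Cas9 deletions present in every cell, and 3 such lines were kept by crossing to C57BL/6; which line gave the sequenced animals is not stated in the sources used here. Per the study's methods, males in its experiments were sexually mature and aged 2 to 6 months, and no separate age is given for the sequenced animals. Whole testis holds all stages of spermatogenesis together with Sertoli, Leydig and blood cells, so that fewer cells of a type and less RNA per cell cannot be told apart.

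PIWI-interacting RNAs (piRNAs) are small RNAs that are cut from long single-stranded precursors, loaded onto PIWI proteins and used to silence transposons and to act on mRNAs in germ cells. Much of the machinery gathers in granules without a membrane, first the nuage between mitochondria of spermatocytes and later the chromatoid body of round spermatids, where helicases and tudor domain proteins hold PIWI proteins and RNA together. The same granules are linked to mRNA storage, since the spermatid genome is packed and falls silent before many of its proteins are made.

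Values are normalized counts, which are reads of a gene divided by the size factor of its library. The 9 libraries held between 3375546 and 4287335 reads counted on genes, and a limit of 3 reads stood for 2.58 to 3.71 normalized counts. Pfn3 itself was at 592, 383 and 373 normalized counts in WT 1 to 3, at 136, 339 and 326 in Het 1 to 3 and at 74.7, 215 and 279 in KO 1 to 3, with every KO animal below every WT animal. Whether the counted 3′ tags lie outside the deleted bases was not analysed here, so this level does not by itself check the genotype. A pair of libraries stood apart, because 11.3% of the 14865 genes that passed the filter in the 9 animals were more than 4-fold below their median in WT 1 and 7.31% in Het 1, against 1.06% to 3.67% in the other 7.

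Of the 38 genes, 34 had signal in all 9 animals and 35 passed the filter of at least 10 normalized counts in at least 3 animals of a comparison. The remaining 3 were at or near the limit of detection. Piwil4, the PIWI protein of the fetal germ line that directs DNA methylation, had 2.83 normalized counts in Het 1 and 2.12 in Het 3 and was at 0 in the other 7. Nanos2, an RNA-binding protein of spermatogonial stem cells, was counted by 1 read, in WT 1. Pnldc1, the nuclease that trims piRNA 3′ ends, was at 0 in all 9 libraries, which at this depth allows a level of up to 3.71 normalized counts in the shallowest library.

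**Figure D1:**
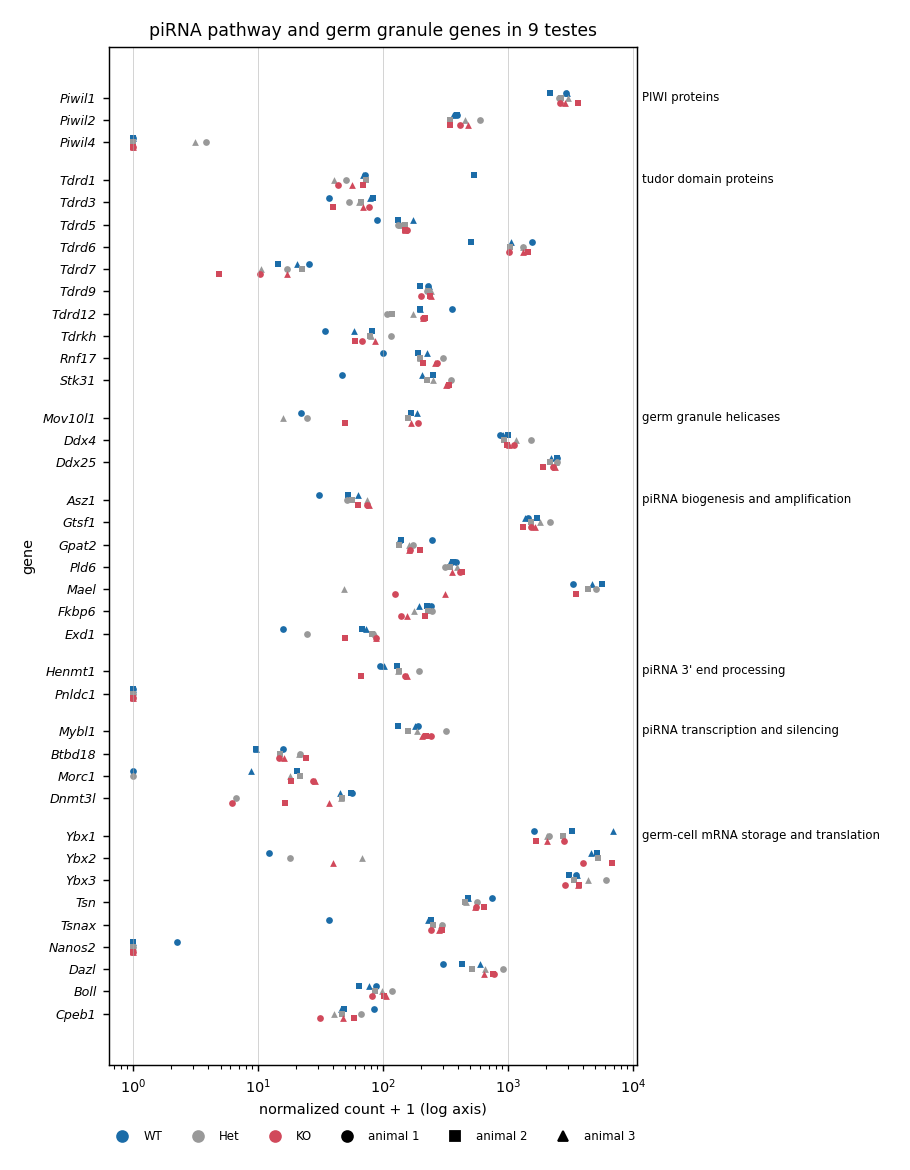
Normalized count + 1 of each of the 38 genes on a log axis, 1 point per animal, coloured by genotype and shaped by animal number, with genes grouped by role. Most rows form a tight band, while single animals of several genotypes lie far to the left for Ybx2, Mael and Mov10l1, and Piwil4, Nanos2 and Pnldc1 lie at or near 0.

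The first question was whether loss of Pfn3 changed the pathway in the testis. In KO against WT, 0 of the 35 tested genes passed the cutoffs (adjusted p under 0.05 and an absolute log2 fold change over 1.5), beside 5 of 14223 genes in all (0.0352%), and the smallest adjusted p among the 35 was 0.610 by limma. At an unadjusted p under 0.05 there were 3 of 35 (8.57%), beside 8.07% of all genes tested, so the share was near the background. Dazl was the 1 of 35 above WT (beside 3.04% of all genes), and Dnmt3l and Mael were the 2 of 35 below it (beside 5.03%). No overlap between KO and WT animals was seen for 5 of 35 genes (14.3%), beside 19.9% of all genes, with 4 higher in KO (11.4%, beside 9.41% of all genes) and 1 lower (2.86%, beside 10.5%). The estimates were above 0 for 23 of 35 genes (65.7%, beside 51.4% of all genes) and below 0 for 12, with a median log2 fold change of 0.13 for the 35 and 0.02 for all genes, and they ran from -3.12 for Mael to 2.12 for Morc1.

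The data limited the size of a change for many of the 35 more closely than the absence of a call does. The 95% interval of the log2 fold change lay within 1 unit of 0, that is within 2-fold, for 15 of 35 genes (42.9%), beside 31.2% of all genes tested. These 15 were Piwil1, Piwil2, Tdrd5, Tdrd9, Tdrd12, Ddx4, Ddx25, Gtsf1, Gpat2, Pld6, Fkbp6, Mybl1, Boll, Tsn and Ybx3. Within 1.5 units of 0 the intervals of 23 of 35 genes were held (65.7%), beside 62.4% of all genes. The median of the intervals' half-width was 0.83 log2 units for the 35 genes and 0.86 for all genes.

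**Figure D2:**
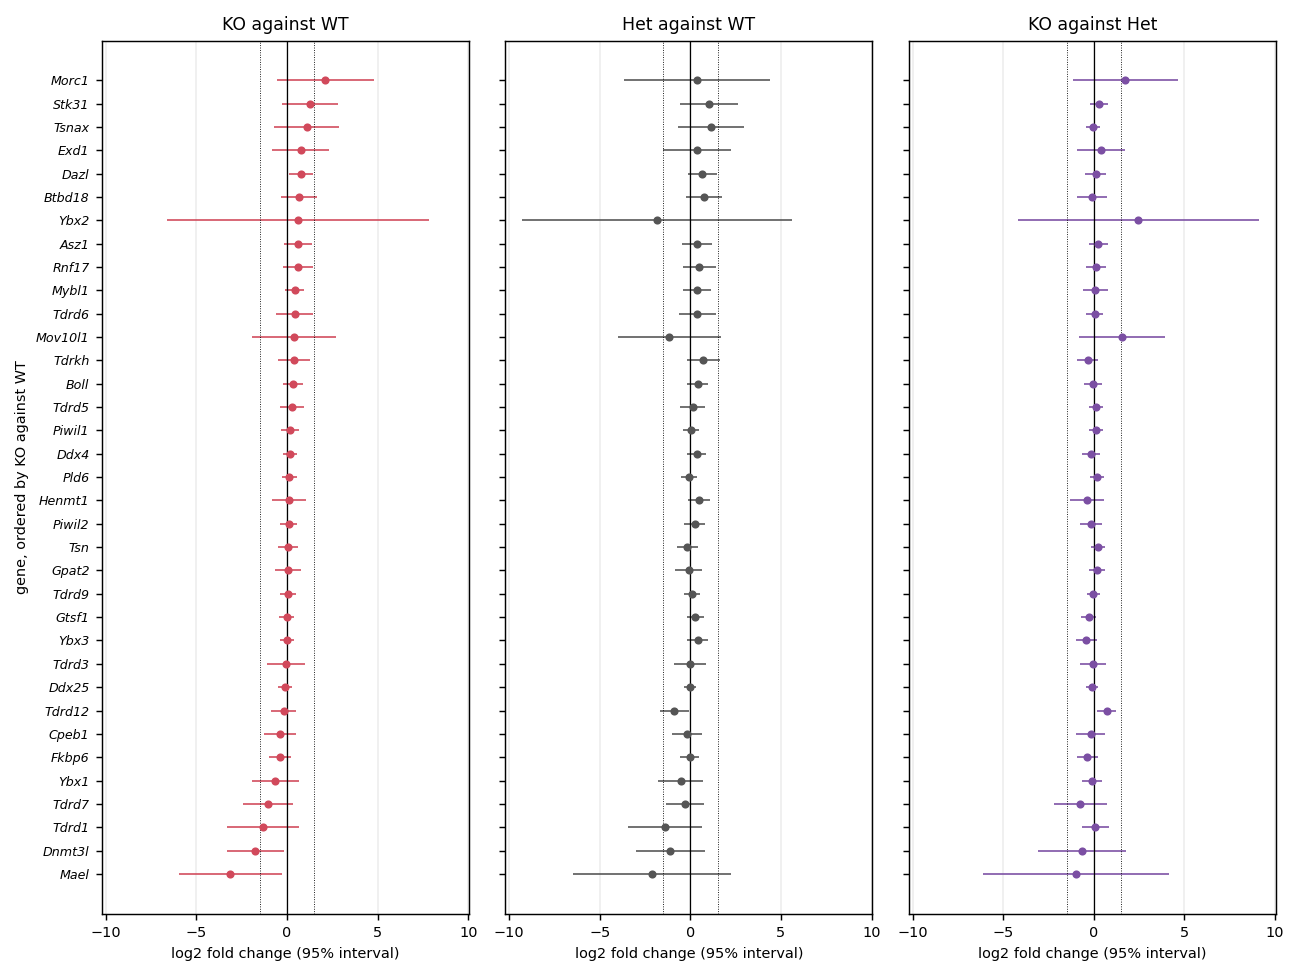
Log2 fold change of the 35 tested genes, on the log2(normalized count + 1) scale, with 95% intervals from limma, in each of the 3 comparisons between genotypes, in the order of KO against WT. Dotted lines mark 1.5 log2 units. Points of the PIWI genes, Ddx4, Ddx25, Gtsf1 and Pld6 sit near 0 with short intervals in all 3 comparisons, while the interval of Ybx2 in KO against WT runs from -6.60 to 7.86.

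The PIWI proteins are the core of the pathway. Piwil1, which binds the piRNAs made in pachytene spermatocytes and round spermatids (chr5:128702524-128755474, plus strand, gene coordinates here and below from GENCODE M21 on GRCm38), was at 2913, 2188 and 2985 normalized counts in the WT animals, at 2570, 2668 and 3050 in the Het animals and at 2616, 3607 and 2862 in the KO animals. Its values overlapped between all genotypes, and KO against WT gave a log2 fold change of 0.17 with a 95% interval from -0.32 to 0.66. Piwil2, the slicer present from spermatogonia on, was at 391, 392 and 363 in WT, at 592, 341 and 449 in Het and at 411, 344 and 474 in KO. The KO animals lay on both sides of the WT animals, and the log2 fold change was 0.09 (95% interval -0.37 to 0.55).

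Tudor domain proteins bind methylated arginines of PIWI proteins and build the granules. Of the 10 tested, 0 passed the cutoffs in any of the 3 comparisons. The share of all genes that did was 0.0352% in KO against WT, 0% in Het against WT and 0.0558% in KO against Het. In KO against WT, 6 estimates were above and 4 below 0. Tdrd9, a helicase that acts with the PIWI proteins against transposons, varied least of the 35 genes, with 1.24-fold between its lowest animal at 196 and its highest at 242 normalized counts. Tdrd5, needed for the chromatoid body, ran from 89.1 in WT 1 to 172 in WT 3, with the KO animals between 149 and 155. Tdrd6, a scaffold of the chromatoid body, ran from 504 in WT 2 to 1558 in WT 1, so that its extremes were both WT animals. An antisense gene that overlaps Tdrd5, 4930518J20Rik, was listed at 393 to 644 normalized counts. The strand setting of the counting is not stated in the sources used here. Of 904 short stretches of sequence near the transcript ends of Tdrd5, 0 were shared with another gene, so this overlap does not reach them. Reads from the overlap itself cannot be told apart without the strand setting.

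Stk31, a germ-cell protein with a tudor and a kinase domain (chr6:49395604-49469501, plus strand), was at 45.8, 252 and 205 normalized counts in WT 1 to 3, at 348, 225 and 251 in Het 1 to 3 and at 329, 337 and 320 in KO 1 to 3. Every KO animal was above every WT animal, and the KO animals were close to each other. The mean was 167 ± 108 in WT and 329 ± 8.36 in KO (SD, n = 3 each). The log2 fold change of 1.29 (SE 0.64, 95% interval -0.25 to 2.83) had an unadjusted p of 0.0864 and an adjusted p of 0.615 by limma. It was 0.53 without WT 1 and 1.75 without WT 2. In both of these fits Stk31 passed an unadjusted p of 0.05 by limma.

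Tdrd12, a tudor domain protein with a helicase domain that takes part in secondary piRNA production (chr7:35469098-35537745, minus strand), showed its lowest values in the heterozygotes. Its normalized counts were 354, 197 and 196 in WT, 106, 116 and 172 in Het and 209, 215 and 206 in KO. The 3 Het animals were below all animals of the other genotypes, and WT 1 was far above the other WT animals. The WT mean was 249 ± 91.0, the Het mean 132 ± 35.8 and the KO mean 210 ± 4.30 (SD, n = 3 each).

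Among the other tudor domain genes, the estimates in KO against WT were 0.59 for Rnf17, which restrains piRNA amplification, 0.42 for Tdrd6, 0.37 for Tdrkh, which brings PIWI proteins to mitochondria, 0.26 for Tdrd5, -0.06 for the broadly expressed Tdrd3 and -1.04 for Tdrd7, a chromatoid body protein. The last rested on few reads, since Tdrd7 was at 24.8, 13.5 and 19.3 normalized counts in WT and at 9.45, 3.87 and 16.1 in KO, with overlap between the genotypes. Tdrkh shared 31.1% of its 50-base stretches near transcript ends with Oaz3, an abundant gene on the opposite strand listed at 3720 to 11670 normalized counts, and its value is uncertain for that reason.

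Tdrd1, which binds PIWIL2 in the nuage, gave an example of a single high animal. It was at 70.6, 534 and 68.6 normalized counts in WT 1 to 3, at 49.1, 72.6 and 39.2 in Het and at 42.9, 68.7 and 55.4 in KO. All animals except WT 2 lay between 39.2 and 72.6. In KO against WT the estimate of -1.32 log2 units (SE 0.82) came to -0.34 without WT 2.

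The germ granule helicases showed a sharp contrast in spread. Ddx4, the mouse homologue of vasa and the usual marker of germ granules, was at 867, 999 and 920 normalized counts in WT, at 1520, 923 and 1158 in Het and at 1122, 978 and 1019 in KO, which gave 0.16 log2 units in KO against WT (95% interval -0.21 to 0.54). Ddx25, the helicase that carries mRNA into the chromatoid body, ran from 1890 to 2478 over all 9 animals, a range of 1.31-fold, with a log2 fold change of -0.12 (95% interval -0.51 to 0.26). Mov10l1, which feeds piRNA precursors into processing (chr15:88982909-89055152, plus strand), was at 21.05, 165 and 185 in WT, at 23.6, 158 and 14.8 in Het and at 190, 48.4 and 166 in KO. Low animals of Mov10l1 occurred in each genotype, and the log2 fold change of 0.40 (SE 0.96) turned to -0.60 without WT 1.

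Promoter sequences are shown for Mov10l1 and Tdrd12, which hold a core motif of the MYB family in the bases printed. They are also shown for Mael and Ybx2, which hold none in the bases printed. Mael and Ybx2 had the widest spread between animals among the 34 genes with signal in every animal. MYBL1 (A-MYB) is the transcription factor that turns on pachytene piRNA precursors together with genes of the pathway. The core AACGG, searched on both strands (CCGTT on the other), with no other motif searched at the same letters, was present in 14 of 44 promoter windows of the 31 matched genes (31.8%), spread over 12 genes, and in 4772 of 32851 windows of all genes (14.5%). The half-site TGACG of cAMP response elements, which the spermatid factor CREM binds, again searched on both strands, was present in 11 of the 44 windows (25%) and in 17.8% of all windows. Each window covered the 250 bases before an annotated start in RefSeq on GRCm38.p6, and those printed end where the GENCODE transcript begins. The counts used whole windows, including bases past the GENCODE start that are not printed. In the window nearest the GENCODE start of each gene, without the bases past that start, only Ddx25, Mov10l1, Fkbp6, Tdrd12 and Tdrd9 held the MYB core. For Ybx2 the bases printed were 147 of the 250 in that window. Some windows lie inside the gene, that of Piwil1 33722 bases from its GENCODE start, so the counts do not all describe sequence before that start. Capitals mark the MYB core, the sequences read 5′ to 3′ on the strand of the gene, and they lie at chr15:88982744-88982908 (plus strand), chr7:35537746-35537994 (minus strand), chr1:166238748-166238994 (minus strand) and chr11:69935649-69935795 (plus strand).
Mov10l1: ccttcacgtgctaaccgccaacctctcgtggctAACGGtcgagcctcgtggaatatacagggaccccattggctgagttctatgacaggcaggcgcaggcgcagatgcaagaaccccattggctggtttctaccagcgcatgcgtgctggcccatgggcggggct
Tdrd12: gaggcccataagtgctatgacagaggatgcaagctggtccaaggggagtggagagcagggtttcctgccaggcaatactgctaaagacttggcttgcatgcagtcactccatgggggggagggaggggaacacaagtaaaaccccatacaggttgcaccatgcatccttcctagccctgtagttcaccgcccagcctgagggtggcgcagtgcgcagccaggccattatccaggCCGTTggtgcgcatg
Mael: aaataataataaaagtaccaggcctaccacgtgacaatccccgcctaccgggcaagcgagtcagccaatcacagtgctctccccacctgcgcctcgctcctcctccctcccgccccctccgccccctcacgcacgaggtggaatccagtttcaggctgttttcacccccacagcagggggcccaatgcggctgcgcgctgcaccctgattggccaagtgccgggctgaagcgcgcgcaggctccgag
Ybx2: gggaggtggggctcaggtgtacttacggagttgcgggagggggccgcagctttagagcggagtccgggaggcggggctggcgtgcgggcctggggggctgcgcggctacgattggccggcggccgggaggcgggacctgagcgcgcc
The core in Mov10l1 starts 132 bases before the end of its sequence and that in Tdrd12 starts 15 bases before the end, on the opposite strand. A match of these letters is a description of the window and not a binding site.

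Factors of piRNA biogenesis and amplification sit largely on the outer mitochondrial membrane or in the nuage beside it. Of the 7 tested, 4 estimates were above and 3 below 0 in KO against WT, and 4 had intervals within 2-fold. Pld6, the nuclease that cuts precursors, ran from 313 to 427 normalized counts over the 9 animals. Gtsf1, a zinc finger partner of PIWI proteins, ran from 1326 to 2173. Gpat2, a mitochondrial membrane protein, ran from 133 to 246, and Fkbp6, a co-chaperone of PIWI loading, from 137 to 245. The log2 fold changes of these 4 in KO against WT were 0.13, -0.00, 0.06 and -0.39.

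Asz1, a mitochondrial scaffold of the nuage (chr6:18050964-18109061, minus strand), was at 29.7, 51.1 and 61.8 normalized counts in WT, at 50.1, 55.9 and 74.1 in Het and at 73.9, 61.9 and 76.0 in KO. The lowest KO animal at 61.9 was just above the highest WT animal at 61.8, so the groups were separate by a margin smaller than 1 read. The means were 47.5 ± 16.3 in WT and 70.6 ± 7.58 in KO (SD, n = 3 each), and the log2 fold change of 0.62 (SE 0.32, 95% interval -0.16 to 1.40) had an adjusted p of 0.617 by limma. Without WT 1 it was 0.32.

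Mael, the germ granule protein maelstrom, needed for transposon silencing and for piRNA intermediates (chr1:166201201-166238747, minus strand), had the lowest estimate of the 35 genes in KO against WT. It was at 3313, 5678 and 4748 normalized counts in WT 1 to 3, at 5079, 4362 and 47.6 in Het 1 to 3 and at 123, 3496 and 314 in KO 1 to 3. KO 1, KO 3 and Het 3 were low, while KO 2 lay above WT 1, so the KO and WT animals overlapped. Averages were 4580 ± 1191 for WT, 3163 ± 2722 for Het and 1311 ± 1895 for KO (SD, n = 3 each). The log2 fold change of -3.12 (SE 1.17, 95% interval -5.96 to -0.28) had an unadjusted p of 0.036 and an adjusted p of 0.610 by limma. It was -2.09 without KO 1, -4.50 without KO 2 and -2.76 without KO 3. Over the alternatives that left out no animal it ran from -3.122 to -1.805, and the KO mean was 0.286 of the WT mean. Mael did not pass an unadjusted p of 0.05 by edgeR or by DESeq2 on the recovered reads, nor with all 9 animals in 1 fit. None of its 50-base stretches near transcript ends was shared with another gene.

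Exd1, the partner of TDRD12, was at 14.9, 66.6 and 72.4 normalized counts in WT, at 23.6, 80.1 and 85.7 in Het and at 87.6, 48.4 and 87.6 in KO. Its low animals were WT 1 and Het 1, the libraries that stood apart. An estimate of 0.77 log2 units in KO against WT (SE 0.65) came to 0.05 without WT 1.

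Henmt1, the methyltransferase that protects piRNA 3′ ends, was at 92.9, 127 and 101 normalized counts in WT, at 193, 134 and 131 in Het and at 149, 65.8 and 156 in KO. The Het animals all lay above the WT animals, while the KO animals lay on both sides. The log2 fold changes were 0.50 (95% interval -0.12 to 1.11) in Het against WT and 0.12 (95% interval -0.81 to 1.04) in KO against WT. Henmt1 shared 20.5% of its 50-base stretches near transcript ends with the overlapping gene Gm9857, which was listed at 0 in every animal.

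Transcription of piRNA precursors and silencing of transposons were represented by 4 tested genes. Mybl1 (chr1:9667415-9700209, minus strand) was at 189, 131 and 179 normalized counts in WT, at 316, 158 and 186 in Het and at 242, 222 and 203 in KO. All KO animals lay above all WT animals, with means of 222 ± 19.7 in KO and 166 ± 31.0 in WT (SD, n = 3 each). Its log2 fold change of 0.43 (SE 0.22, 95% interval -0.10 to 0.96) had an adjusted p of 0.616 by limma, and without WT 1 it was 0.53. Btbd18, a nuclear factor of pachytene piRNA transcription, rested on few reads, from 8.68 to 23.2 normalized counts, with an estimate of 0.65 in KO against WT (95% interval -0.34 to 1.65).

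Dnmt3l, the cofactor of de novo DNA methylation (chr10:78041947-78063622, plus strand), was at 55.7, 54.0 and 44.4 normalized counts in WT, at 5.67, 45.6 and 45.5 in Het and at 5.15, 15.5 and 35.7 in KO. Every KO animal was below every WT animal, but Het 1 was as low as KO 1 while the other Het animals were near the WT level. The means were 51.4 ± 6.09 in WT and 18.8 ± 15.6 in KO (SD, n = 3 each). An estimate of -1.75 log2 units (SE 0.65, 95% interval -3.31 to -0.19) had an unadjusted p of 0.0337 and an adjusted p of 0.610 by limma, and it was -1.08 without KO 1 and -2.37 without KO 3. On the recovered reads Dnmt3l passed an unadjusted p of 0.05 by DESeq2 but not by edgeR.

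Morc1, a chromatin factor that silences transposons, had the highest estimate of the 35 and few reads. It was at 0, 19.3 and 7.72 normalized counts in WT, at 0, 20.5 and 16.9 in Het and at 26.6, 17.4 and 27.7 in KO. The animals at 0 were WT 1 and Het 1, and the KO and WT animals overlapped. The log2 fold change of 2.12 (SE 1.11, 95% interval -0.56 to 4.81) was 0.88 without WT 1 and 3.05 without WT 2, where Morc1 passed an unadjusted p of 0.05.

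Genes of germ-cell mRNA storage and translation were the largest class after the tudor domain proteins, with 8 tested. Dazl, which binds the 3′ ends of germ-cell mRNAs and promotes their translation (chr17:50279395-50293636, minus strand), was at 303, 426 and 591 normalized counts in WT, at 911, 513 and 657 in Het and at 770, 758 and 645 in KO. All KO animals lay above all WT animals, and the Het animals ran from 513 to 911. Averages were 440 ± 144 for WT, 694 ± 201 for Het and 724 ± 68.8 for KO (SD, n = 3 each). KO against WT gave a log2 fold change of 0.77 (SE 0.28, 95% interval 0.10 to 1.43), with an unadjusted p of 0.0306 and an adjusted p of 0.610 by limma, and it was 0.52 without WT 1. Boll, its relative, ran from 62.7 to 117 normalized counts and differed by 0.34 log2 units in KO against WT (95% interval -0.22 to 0.89).

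**Figure D3:**
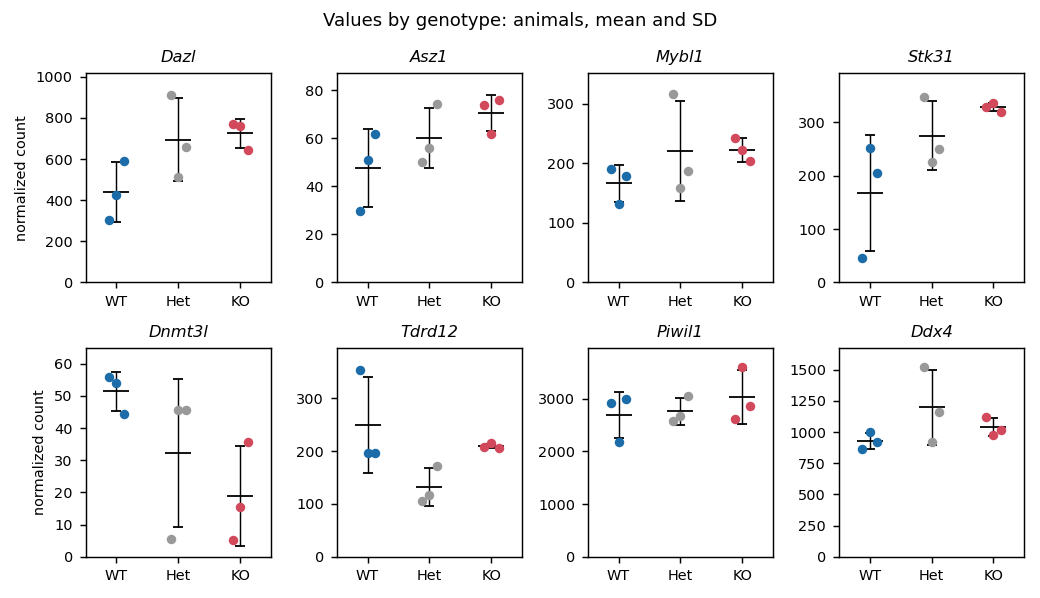
Normalized counts of 8 genes by genotype on linear axes from 0, 1 point per animal, with the mean as a bar and the SD as whiskers (n = 3). KO animals lie above all WT animals for Dazl, Asz1, Mybl1 and Stk31 and below them for Dnmt3l, Het animals are the lowest for Tdrd12, and Piwil1 and Ddx4 overlap between genotypes.

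Sums of cell type markers did not overlap between KO and WT for 3 of 9 lists. The summed level of 7 spermatocyte markers, 7 of 7 with signal, was 2973 to 3845 normalized counts in WT, 3048 to 6569 in Het and 4723 to 5275 in KO, so that every KO animal was above every WT animal, as for Dazl, Mybl1, Stk31 and Asz1. The 8 round spermatid markers, 8 of 8 with signal, summed to 5172 to 5378 in WT, 4518 to 5167 in Het and 2672 to 4748 in KO, and the 4 elongating spermatid markers (Tnp1, Tnp2, Prm1 and Prm2) to 233289 to 249362, 179063 to 214894 and 123388 to 199672, with KO below WT as for Dnmt3l. In both spermatid lists the Het animals were also below all WT animals, which was not so for Dnmt3l. The part of cell types in the values of these genes was not tested. Sums of 8 spermatogonia, 8 Sertoli (Amh at 0), 7 Leydig, 6 macrophage and 5 erythrocyte markers overlapped between KO and WT, at 247 to 428 against 253 to 285 for spermatogonia, 3074 to 3852 against 2628 to 5037 for Sertoli cells, 2334 to 3744 against 2173 to 3128 for Leydig cells, 178 to 257 against 167 to 197 for macrophages and 927 to 1243 against 853 to 1200 for erythrocytes, WT first. Of 6 epididymis markers 4 were at 0 throughout (Adam7, Cst11, Lcn5 and Lcn8), and the sum reached at most 8.69.

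The Y-box proteins coat and store germ-cell mRNA, and their 3 genes behaved differently. Ybx3 ran from 2840 to 6134 normalized counts, and its estimate in KO against WT was -0.00 log2 units (95% interval -0.41 to 0.40). Ybx1, the general member, was at 1626, 3237 and 6933 in WT, at 2142, 2745 and 2055 in Het and at 2808, 1673 and 2064 in KO. WT 3 was the highest, and the log2 fold change of -0.64 (SE 0.53) was -0.11 without it. Without WT 1 it was -1.15, where Ybx1 passed an unadjusted p of 0.05 by limma.

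Ybx2, the germ-cell-specific member known as MSY2 (chr11:69935796-69941605, plus strand), had the widest spread of the 34 genes with signal in every animal. It was at 11.1, 5124 and 4592 normalized counts in WT 1 to 3, at 17.0, 5225 and 66.7 in Het 1 to 3 and at 3960, 6793 and 38.4 in KO 1 to 3. The values fell into a high set of 5 animals from 3960 up and a low set of 4 animals at or below 66.7, with both sets present in every genotype. Whether the values near 0 of Ybx2, Mael and Mov10l1 reflect the transcripts in the testis or the assembly and counting of reads was not tested, since reads were not analysed here, and this holds also for the fold changes of these genes. The highest value was 610 times the lowest. The estimate in KO against WT was 0.63 log2 units with a SE of 2.98, and it ran from -2.25 without WT 1 to 2.98 without KO 3. None of its 50-base stretches near transcript ends was shared with another gene.

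Translin (Tsn) and its partner translin-associated factor X (Tsnax), which form a nuclease complex that also binds germ-cell RNA, differed in spread. Tsn ran from 453 to 740 normalized counts, and its estimate in KO against WT was 0.06 log2 units (95% interval -0.50 to 0.63). Tsnax was at 35.9, 243 and 227 in WT, at 298, 250 and 290 in Het and at 240, 298 and 278 in KO. WT 1 alone was low, and the log2 fold change of 1.10 (SE 0.74) was 0.20 without it. Cpeb1, which controls poly(A) tails, ran from 30.1 to 83.0 with an estimate of -0.37 (95% interval -1.26 to 0.52). Tsnax shared 4.1% of its 50-base stretches near transcript ends with other genes, Fkbp6 1.29% and Ybx1 0.87%, and beside Tdrkh and Henmt1 no other gene of the 38 shared any.

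Values far from the rest occurred for 9 of the 35 genes (25.7%), counting an animal as far when it was more than 2 log2 units (4-fold) from the gene's median over the 9 animals. The share of all 14865 genes was 23.8%, so the 35 were near the background. At a mean of at least 30 normalized counts the share was 8 of 32 genes (25%), beside 2060 of 10607 genes in all (19.4%). At a mean of at least 1000 normalized counts, where counting error is small, it was 2 of 9 genes (22.2%), Mael and Ybx2, beside 58 of 682 genes in all (8.5%), a description over few genes with no test. Low values were placed in WT 1 for 6 of 35 genes (Ybx2, Mov10l1, Morc1, Exd1, Stk31 and Tsnax, 17.1%), in Het 1 for 4 (11.4%), in Het 3 for 3 (8.57%) and in KO 1 and KO 3 for 2 each (5.71%), and they did not occur in WT 2, WT 3, Het 2 or KO 2. The 1 high value was that of Tdrd1 in WT 2. For Mael the low animals were not the libraries that stood apart, as it was at 3313 in WT 1 and 5079 in Het 1 but low in KO 1, where 1.84% of all genes were low.

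**Figure D4:**
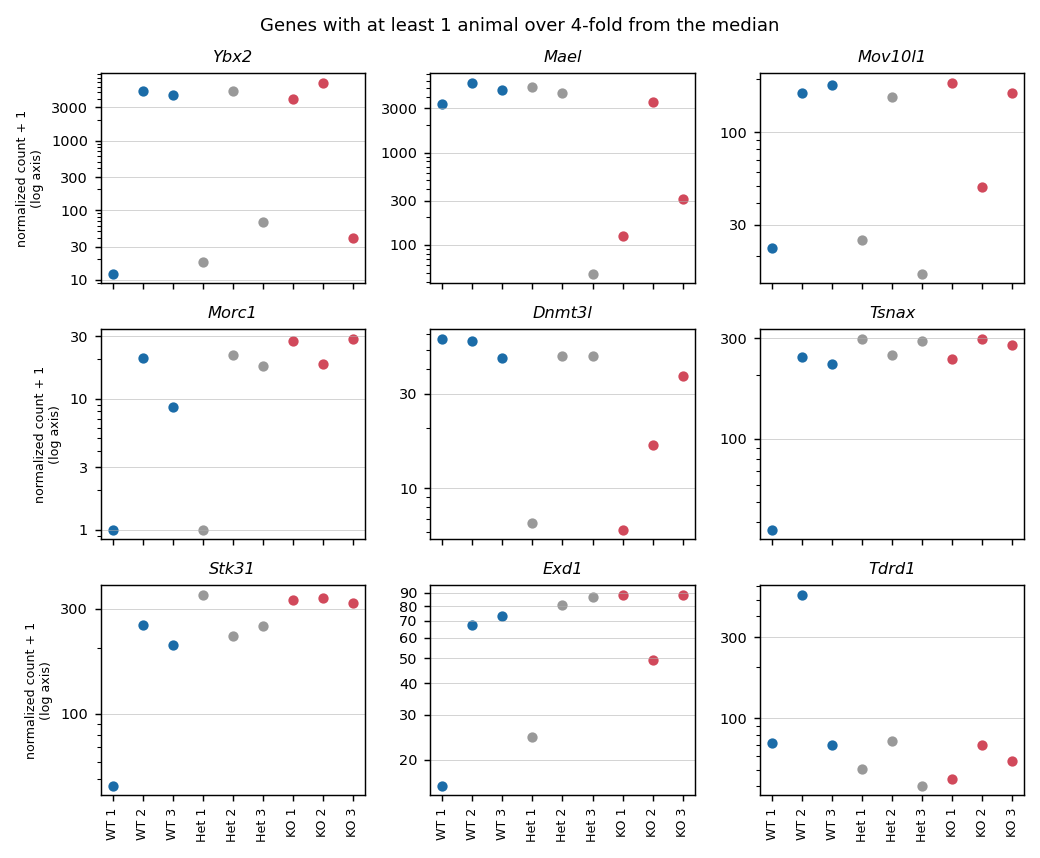
Normalized count + 1 on a log axis, by animal, for the 9 genes with at least 1 animal more than 4-fold from the median of the 9. Low points fall in WT 1 for Ybx2, Mov10l1, Morc1, Tsnax, Stk31 and Exd1, while those of Mael fall in Het 3, KO 1 and KO 3 and the high point of Tdrd1 in WT 2.

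**Figure D5:**
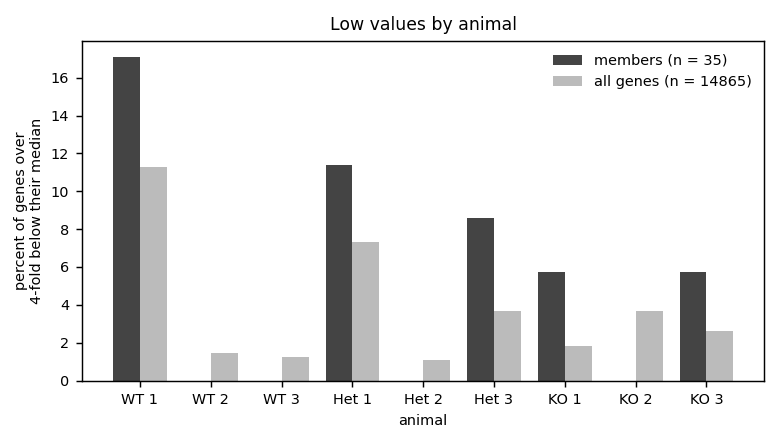
Percent of the 35 tested genes (dark bars) and of all 14865 genes (light bars) that were more than 4-fold below their median over the 9 animals, by animal. WT 1 is highest at 17.1% of the 35 and 11.3% of all genes, followed by Het 1 at 11.4% and 7.31%, and the dark bars are at 0 in WT 2, WT 3, Het 2 and KO 2.

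Loss of 1 Pfn3 allele was addressed by Het against WT. There, 0 of the 35 genes passed the cutoffs, beside 0 of 14216 genes in all (0%), and 1 of 35 (2.86%) had an unadjusted p under 0.05, beside 3.34% of all genes. The Het and WT animals did not overlap for 3 of 35 genes (8.57%), beside 13.3% of all genes. Henmt1 and Tsnax were higher in Het (2 of 35, beside 6.76% of all genes) and Tdrd12 lower (1 of 35, beside 6.49%). Estimates were above 0 for 20 of 35 genes (57.1%, beside 50.5% of all genes) and below 0 for 15, with a median of 0.14 for the 35 and 0.01 for all genes, and the interval was within 1 log2 unit of 0 for 14 of 35 genes (40%), beside 33% of all genes. For Tdrd12 the log2 fold change was -0.89 (SE 0.33, 95% interval -1.70 to -0.08), with an unadjusted p of 0.0359 and an adjusted p of 0.779 by limma, and it was -0.61 without WT 1 and -0.75 without Het 1.

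In KO against Het, 0 of the 35 genes passed the cutoffs, beside 8 of 14343 genes in all (0.0558%). An unadjusted p under 0.05 was reached by 1 of 35 (2.86%), again Tdrd12, beside 3.56% of all genes, and it was also the only 1 of 35 whose animals did not overlap, beside 10% of all genes. Its log2 fold change was 0.70 (SE 0.22, 95% interval 0.17 to 1.24), with an unadjusted p of 0.0183 and an adjusted p of 0.973 by limma. The interval lay within 1 log2 unit of 0 for 26 of 35 genes (74.3%), beside 50.9% of all genes, and the estimates ran from -0.99 for Mael to 2.46 for Ybx2, with a median of -0.03 and 17 of 35 above 0 (48.6%, beside 49.7% of all genes). The comparisons share animals, KO against WT and Het against WT the WT animals and KO against Het and Het against WT the Het animals, so their values for a gene are not independent. With 3 animals a side, the smallest two-sided p that an exact permutation test can give for a single gene is 0.1.

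Further genes of the same biology were read in 3 lists. Of 19 other piRNA pathway and germ granule genes, 15 were tested in KO against WT and 0 passed the cutoffs or an unadjusted p of 0.05 (beside 0.0352% and 8.07% of all genes), with 6 estimates above and 9 below 0 and a median of -0.19, while Dnmt3c, Fbxo24, Rnf8 and Tdrd10 were not analysed here. The smallest p was that of Kif17, a motor found with the chromatoid body, at 473, 417 and 481 normalized counts in WT, 326, 609 and 447 in Het and 324, 231 and 392 in KO, with a log2 fold change of -0.56 (SE 0.24). Of 20 other genes of germ-cell mRNA storage and translation, 19 were tested and 0 passed the cutoffs (beside 0.0352% of all genes). Their estimates were above 0 for 8 and below 0 for 11, with a median of -0.08. The meiotic RNA helicase Ythdc2 alone of these, 1 of 19 (5.26%, beside 8.07% of all genes), had an unadjusted p under 0.05. It was at 17.3, 36.7 and 35.7 in WT, at 57.6, 31.7 and 60.3 in Het and at 60.1, 57.1 and 43.8 in KO. The difference of 0.88 log2 units (SE 0.36) in KO against WT had an adjusted p of 0.610 by limma.

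The list of small RNA and mRNA decay factors of cytoplasmic granules held 16 genes, all tested in KO against WT. Of these, 0 passed the cutoffs (beside 0.0352% of all genes), with 10 estimates above and 6 below 0, and a median of 0.14. An unadjusted p under 0.05 was reached by 3 of 16 (18.8%), beside 8.07% of all genes tested, with Dicer1 and Upf2 below and Ago2 above WT. The list was not tested as a set. Dicer1, the nuclease that makes microRNAs and is found in the chromatoid body but is not needed for piRNAs, was at 43.3, 54.0 and 62.8 normalized counts in WT, at 19.8, 60.5 and 61.4 in Het and at 20.6, 22.3 and 25.0 in KO. The KO animals were close to each other and below all WT animals, with Het 1 as low as the KO animals. Its log2 fold change of -1.19 (SE 0.25, 95% interval -1.81 to -0.57) had an unadjusted p of 0.00308 and an adjusted p of 0.522 by limma. Upf2, a factor of nonsense-mediated decay, was at 607, 493 and 555 in WT and 464, 257 and 307 in KO, with a log2 fold change of -0.72 (SE 0.26). The KO animals of Ago2, the microRNA effector, were higher, at 125, 246 and 148 against 100.3, 89.7 and 95.6 in WT, with a log2 fold change of 0.80 (SE 0.29). The Het animals, at 193, 132 and 152, were also above all WT animals. Het against WT gave 0.72 log2 units for Ago2 (SE 0.22), with an unadjusted p of 0.0167 and an adjusted p of 0.779 by limma.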

How the data were processed

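QuantSeq 3′ libraries from 9 testes were sequenced to 50-base reads. Per the paper's methods and the submitters' processing notes, the authors trimmed with Trim Galore 0.4.5, aligned to GRCm38 with HISAT2 2.1, assembled and counted with StringTie 1.3.3, and removed pseudogenes. The values the authors deposited are a signal, gene counts divided by 1 size factor per library; 100% of nonzero values were whole multiples of 1 read within 0.01, and the factors differed from median-of-ratios factors by at most 0.0792%. Of the 38 genes, 35 lie on loci of the merged assembly and 3 on Ensembl genes only. Gene positions came from GENCODE M21.

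Groups were taken from the sample titles. Each comparison used limma 3.58.1 in R 4.3.3 (eBayes with a trend) on log2(value + 1), fitted over all genes that reached 10 normalized counts in 3 or more of its animals, with Benjamini-Hochberg adjustment over all of them and only the 2 genotypes compared; fold changes of low genes are understated on this scale. Cutoffs were an adjusted p under 0.05 and a log2 fold change over 1.5. The scripts were tested on simulated data. Alternatives were edgeR 4.0.16 and DESeq2 1.42.0 on the recovered reads, TMM factors, pseudocounts of 0.5 and 5, no filter, all 9 animals in 1 fit, the replicate number as a block, each animal left out, rows of 1 symbol summed, and no fold cutoff. All 38 genes are named; full statistics are given for those with an unadjusted p under 0.05 in KO or Het against WT or with no overlap between KO and WT, and up to 4 genes of each further list by smallest p; 9 marker lists served to read cell types. The genes and lists were chosen with earlier results of these data known. Nothing states that the samples are other than 1 animal each, so p-values measure the spread between these animals. Limits from read counts cover counting error only.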

Additional observations from a re-analysis of the deposited data

How the results depend on the processing

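The count of piRNA pathway and germ granule genes that passed the cutoffs was 0 in each of the 3 comparisons under every alternative run, including every animal left out in turn. The number with an unadjusted p under 0.05 was less steady. In KO against WT it was 3, beside 1148 of all 14223 genes tested. It was 1 (Dazl) by edgeR, beside 1103 of 14223, and 3 (Dazl, Dnmt3l and Tdrd1) by DESeq2, beside 1265 of 24422. With all 9 animals in 1 fit it was 1 (Dazl), beside 1325 of 14865. Leaving out each animal gave 0 (without KO 1, beside 814 of 13828) to 4 (without WT 1, beside 1240 of 13964). The 4 were Dazl, Mybl1, Stk31 and Ybx1. In Het against WT it was 1, beside 475 of all 14216 genes tested. By DESeq2 it was 2 (Tdrd1 and Tdrd12), beside 535 of 24069. With all 9 animals in 1 fit it was 2 (Dazl and Tdrd12), beside 853 of 14865. With each animal left out it was 0 to 2, while the number over all genes ran from 182 of 13892 (without Het 1) to 745 of 13763 (without Het 2). In KO against Het it was 1, beside 510 of all 14343 genes tested. With each animal left out it was 1 to 2, while the number over all genes ran from 311 of 13968 (without KO 1) to 724 of 14012 (without Het 1). The cause of these changes was not tested. Over all genes, the calls in KO against WT numbered 5 by limma and by edgeR, 101 by DESeq2 and 0 to 49 with each animal left out, the most without WT 1.

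Same-numbered animals of different genotypes deviated together no more than others did. The correlation of deviations was -0.14 to 0.188 over 9 such pairs and -0.242 to 0.188 over 18 pairs of other numbers. Whether the numbers mark litters or batches is not stated in the sources used here, and so few correlations cannot decide it. With the replicate block the number at an unadjusted p under 0.05 was 2 in KO against WT (Dnmt3l and Mael), beside 794 of 14223 genes. It was 0 in Het against WT, beside 322 of 14216, and 1 in KO against Het, beside 403 of 14343. The calls over all genes were 0 in each.

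Of 525 log2 fold changes recomputed for single genes in KO against WT, 498 kept their sign and 27 did not. The numbers were 500 and 22 of 522 in Het against WT and 490 and 32 of 522 in KO against Het, with 0 called. Several alternatives, such as other pseudocounts and summed rows, refit nearly the same values, so these numbers overstate how steady the signs are. Few reads limit Morc1, Tdrd7, Btbd18 and Dnmt3l, and the spread between animals limits Ybx2, Mael and Mov10l1.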
